A study of Mus musculus with 45 samples.

Results

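Dazl, Fkbp6, Stra8, Ddx4, Mael, Morc1, Tex19.1, Rhox5, Trap1a and Fmr1nb are genes of the mouse germ line that were also read in pluripotent cells of a long-read RNA sequencing study of reprogramming. The 10 genes were chosen by their levels in these libraries, high in embryonic stem cells and low in neural progenitors, and all 10 had a row in the gene table of 23575 genes. Their transcripts made up 118 of the 276608 rows of the transcript table. The series holds 45 libraries of neural progenitor cells (NPCs), of such progenitors during reprogramming, and of embryonic stem cells (ESCs), read on Oxford Nanopore flow cells.

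The cells came from R1, an ESC line, from R1-Clone3, and from O4G, an R1 line with a GFP reporter driven by the Oct4 promoter. The 8 NPC libraries were O4G cells in NPC medium: 4 were wild-type, and the others carried the genotypes OKMS-Luciferase-AS or OKS-Luciferase-AS, stable transgenes of reprogramming factors switched on by doxycycline. OKMS adds Myc to the Oct4, Klf4 and Sox2 of OKS. These lines were put into FBS-LIF medium with doxycycline and sampled at days 2, 4, 6, 10, 14, 18 and 20, in 12 libraries on R9 flow cells and 8 on R10. A further 5 libraries, at day 14, 18 or 20, were kept without doxycycline in 2i-LIF, a medium with a GSK3 and a MEK inhibitor; the switch was at day 6 for those of days 14 and 20. Wild-type O4G progenitors at day 2 of the same FBS-LIF medium with doxycycline gave 3 libraries, and wild-type ESCs in 2i-LIF gave 9, of which 2 were R9. The labels do not say whether libraries of a group came from separate cultures, nor whether an R9 and an R10 library share RNA, so p-values measure the spread between these libraries, which may be technical. R9 libraries held 447990 to 1390424 gene-assigned reads and R10 libraries 566599 to 4236442, so that 1 read was worth 0.236 to 2.23 CPM, the deposited unit of gene level, which is scaled to the reads of a library.

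Germ line genes are silenced in somatic cells by DNA methylation at their promoters, by histone H3 lysine 9 methylation, and by the Polycomb complex PRC1.6, whose MAX and MGA subunits recognise E-box sequences and whose E2F6 subunit recognises E2F sites. Naive pluripotent cells, which have little DNA methylation in 2i-LIF, transcribe part of this programme without being germ cells. In the germ line, Dazl is an RNA-binding protein that germ cells need to develop, and Stra8 is the factor induced by retinoic acid at entry into meiosis. Ddx4 (Vasa) is the RNA helicase of germ granules. Mael and Fkbp6 act in the piRNA pathway that silences transposons, Morc1 and Tex19.1 also restrain transposons, and Rhox5, Trap1a and Fmr1nb are X-linked genes, Rhox5 a homeobox factor and the others antigens shared by testis and tumours.

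In the GENCODE M21 annotation of GRCm38, Dazl lies at chr17:50279395-50293636 on the minus strand, Stra8 at chr6:34920163-34939344 on the plus strand and Ddx4 at chr13:112598333-112652475 on the minus strand. Fkbp6 lies at chr5:135291704-135350044 and Mael at chr1:166201201-166238747, both on the minus strand. Morc1 lies at chr16:48431237-48630900 and Tex19.1 at chr11:121146143-121148319, both on the plus strand. The X-linked genes are all on the plus strand, Rhox5 at chrX:37804842-37808876, Trap1a at chrX:139333683-139338169 and Fmr1nb at chrX:68761839-68804567. Trap1a is overlapped by Platr21 on the other strand, which did not exceed 8.44 CPM in the groups examined, and Fmr1nb by the processed pseudogene Gm14699. Whether reads were counted by strand is not given in the sources used here. Tex19.1 has a close paralog, Tex19.2, at 3.79 to 16.8 CPM in ESCs, and reads could be split between the copies.

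Promoter windows of 300 bases, 250 before and 50 after the annotated start, were available in RefSeq for 9 of the 10 genes (GRCm38.p6), with 2 windows for Fkbp6; Morc1 had none. They are shown because PRC1.6 binding sequences have been described at germ line promoters. The letters searched on both strands were CACGTG, an E-box, and GCGGGA, part of an E2F site, which reads TCCCGC on the other strand; the motifs do not overlap here. CACGTG was found for Fkbp6, Ddx4 and Mael, and in 7.15% of all 32851 windows of the table. GCGGGA was found for Ddx4, Mael and Tex19.1, and in 20.0% of all windows, while 1.99% held both motifs. The windows below run 5′ to 3′ on the gene's strand, with the motifs in capitals: Fkbp6 (chr5:135349995-135350294), Ddx4 (chr13:112652261-112652560), Mael (chr1:166238695-166238994) and Tex19.1 (chr11:121145893-121146192). Dazl (chr17:50293571-50293870) is set beside Fkbp6 because its level ran closest to it, and Rhox5 (chrX:37754358-37754657) because its transcripts started there.
Fkbp6: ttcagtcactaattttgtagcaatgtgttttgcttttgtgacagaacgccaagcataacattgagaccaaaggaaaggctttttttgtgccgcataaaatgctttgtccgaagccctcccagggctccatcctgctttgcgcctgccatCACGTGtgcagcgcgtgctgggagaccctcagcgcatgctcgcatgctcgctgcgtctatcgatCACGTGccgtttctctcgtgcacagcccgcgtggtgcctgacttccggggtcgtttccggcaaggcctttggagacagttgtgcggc
Ddx4: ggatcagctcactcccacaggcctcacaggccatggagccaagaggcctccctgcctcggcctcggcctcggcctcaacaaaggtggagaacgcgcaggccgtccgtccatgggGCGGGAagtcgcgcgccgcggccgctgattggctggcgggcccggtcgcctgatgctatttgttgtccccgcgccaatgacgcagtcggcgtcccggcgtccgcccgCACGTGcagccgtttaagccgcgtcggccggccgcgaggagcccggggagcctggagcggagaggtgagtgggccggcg
Mael: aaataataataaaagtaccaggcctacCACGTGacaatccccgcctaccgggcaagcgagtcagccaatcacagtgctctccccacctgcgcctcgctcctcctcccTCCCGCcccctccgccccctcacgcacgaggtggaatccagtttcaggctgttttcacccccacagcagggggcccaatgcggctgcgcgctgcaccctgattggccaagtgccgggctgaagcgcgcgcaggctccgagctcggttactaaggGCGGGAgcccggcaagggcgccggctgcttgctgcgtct
Tex19.1: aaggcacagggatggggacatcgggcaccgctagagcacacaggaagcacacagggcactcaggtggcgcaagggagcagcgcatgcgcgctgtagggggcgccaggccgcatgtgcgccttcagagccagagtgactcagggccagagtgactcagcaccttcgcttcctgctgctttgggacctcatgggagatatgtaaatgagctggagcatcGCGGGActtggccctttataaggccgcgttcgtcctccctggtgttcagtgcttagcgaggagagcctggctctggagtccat
Dazl: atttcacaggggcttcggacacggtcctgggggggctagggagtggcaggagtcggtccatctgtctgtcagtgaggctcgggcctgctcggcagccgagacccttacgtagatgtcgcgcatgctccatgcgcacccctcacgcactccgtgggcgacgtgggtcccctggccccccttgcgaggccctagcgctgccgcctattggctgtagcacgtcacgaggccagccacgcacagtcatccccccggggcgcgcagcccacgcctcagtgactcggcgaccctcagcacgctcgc
Rhox5: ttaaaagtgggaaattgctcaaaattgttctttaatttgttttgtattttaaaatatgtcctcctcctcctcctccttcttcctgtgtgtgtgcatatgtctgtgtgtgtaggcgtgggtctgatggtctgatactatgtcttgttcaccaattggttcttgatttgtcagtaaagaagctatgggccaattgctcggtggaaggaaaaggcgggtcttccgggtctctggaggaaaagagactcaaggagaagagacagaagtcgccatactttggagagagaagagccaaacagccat

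In the windows shown, the 2 E-boxes of Fkbp6 began 101 and 37 bases before the start, that of Ddx4 29 bases before and that of Mael 223 bases before. The other Fkbp6 window has its start further inside the gene. There the same E-boxes began 232 and 168 bases before the start, and the window held 32 CpG dinucleotides. The E2F letters began 136 bases before the start of Ddx4, 33 before that of Tex19.1, and 143 before that of Mael, which had a further match just after it. These matches are descriptions of letters, not of binding. The windows of Ddx4, Dazl, Mael, Fkbp6, Tex19.1 and Stra8 held 38, 28, 24, 21, 16 and 10 CpG dinucleotides, against a median of 7 over all windows. Those of the X-linked genes Fmr1nb, Trap1a and Rhox5 held 9, 8 and 5.

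In the NPCs the genes were nearly silent, apart from Rhox5. Stra8, Ddx4, Mael and Fmr1nb had no read in any of the 8 NPC libraries, which allows up to 0.219 CPM over them (3 reads of their total, counting error only). Fkbp6, Dazl, Morc1, Tex19.1 and Trap1a did not exceed 3.37 CPM in any NPC library. Rhox5 was read in all 8, from 5.38 to 9.36 CPM with a median of 7.0. In the 9 ESC libraries the levels differed widely between the genes. Trap1a ran from 230 to 496 CPM (median 420) and Morc1 from 246 to 410 CPM (median 334). Rhox5 ran from 80.9 to 198 CPM (median 136), Tex19.1 from 80.5 to 208 CPM (median 128) and Dazl from 82.4 to 138 CPM (median 115). Fkbp6 ran from 85.9 to 159 CPM (median 104) and Fmr1nb from 61.6 to 199 CPM (median 84.8). For these 7 genes the lowest ESC library was at 61.6 CPM and the highest NPC library at 9.36 CPM.

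Stra8, Ddx4 and Mael were far lower in ESCs than the other genes. Stra8 ran from 1.34 to 90.7 CPM (median 7.55), and to 43.7 CPM (median 5.42) without an R1 library on R10 whose title has no n number, described with the markers. Ddx4 ran from 1.49 to 7.45 CPM (median 3.49) and Mael from 0.87 to 4.00 CPM (median 1.64). The Mael values rest on 45 reads over the 7 R10 ESC libraries and 3 reads over the 2 R9 libraries. The ESC level over the NPC level chose the genes and is given with no test. In R10, with reads summed over libraries, Rhox5 was 18-fold higher in ESCs. Against a bound of 3 reads over the NPC libraries, Dazl was at least 358-fold higher, Fmr1nb at least 305-fold, Stra8 at least 55.5-fold, Ddx4 at least 11.4-fold and Mael at least 7.22-fold. The Stra8 bound rests on that R1 library, which holds 243 of the 346 reads, and was at least 18.8-fold without it.

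**Figure D1:**
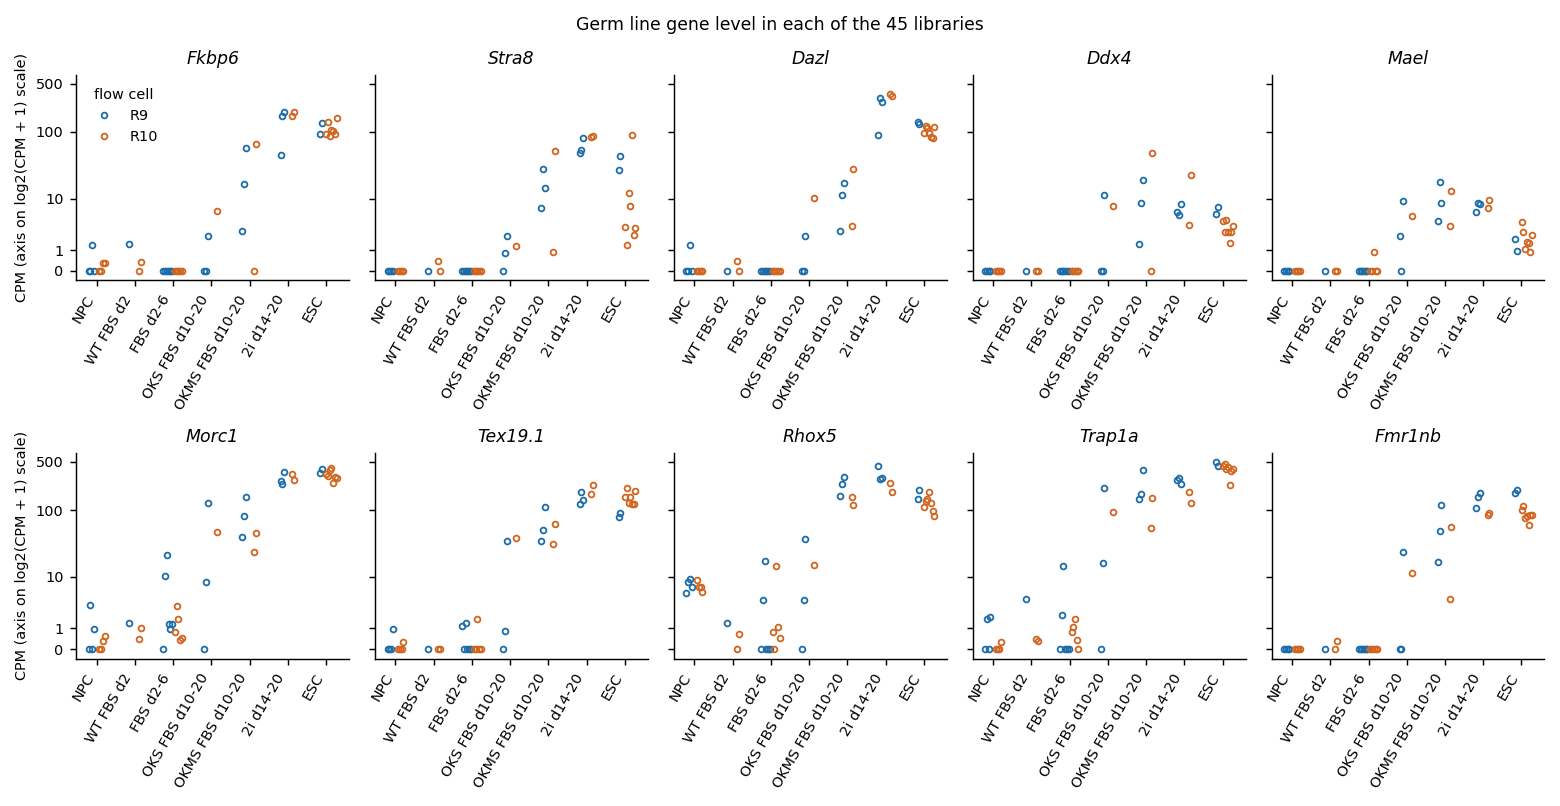
Each panel shows 1 gene and each point 1 of the 45 libraries, by group on the x axis (NPC; wild-type cells at day 2 of FBS-LIF plus doxycycline; reprogramming cells in FBS-LIF with doxycycline, days 2 to 6, and days 10 to 20 by system; reprogramming cells in 2i-LIF; ESC) and CPM on an axis spaced as log2(CPM + 1). Blue points are R9 and orange points R10; 4 genes have no read in any of the 8 NPC libraries, and Rhox5 has 5.38 to 9.36 CPM there.

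To compare the genes with each other, the deposited TPM values of each gene's transcripts were summed, since TPM corrects for transcript length as well as depth. Over the 5 reprogramming libraries in 2i-LIF, the lowest summed TPM of Ddx4 was 0, while its lowest CPM was 3.53. Reads of a gene may thus be missing from its transcripts, which limits the order of low genes and the transcript shares. In the 6 R10 ESC libraries with an n number in their titles, Trap1a had the highest median summed TPM, 528, followed by Morc1 at 255, Rhox5 at 215, Tex19.1 at 169 and Fmr1nb at 163. Trap1a did not overlap Morc1 in range, whereas the ranges of Morc1, Rhox5, Tex19.1 and Fmr1nb overlapped in that order. Fkbp6 had a median summed TPM of 91.7 and Dazl of 35.6, and these ranges did not overlap. Stra8 at 4.36 TPM, Mael at 1.69 and Ddx4 at 0.935 came last, with overlapping ranges. The order differed in the 2 R9 ESC libraries, where Fmr1nb came second with a median of 383 TPM, ahead of Rhox5 at 253 and Morc1 at 184, and where Stra8 at 53.1 and Dazl at 47.2 overlapped. The R1 library on R10 without an n number had Stra8 at 69.1 TPM, above Dazl at 27.8. In the 5 reprogramming libraries in 2i-LIF, Rhox5 came first with a median of 399 TPM, ahead of Trap1a at 339.

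The labelled cell types carried their markers. Over 13 pluripotency genes, the summed level was 12174 to 15371 CPM in ESCs and 16 to 35.4 CPM in NPCs, and over 8 neural progenitor genes it was 4.93 to 43.7 CPM in ESCs and 4483 to 7064 CPM in NPCs. Germ cells and gonadal cells were also checked. Of 9 spermatocyte and spermatid markers only Ldhc was in the table, at 1.49 to 20.5 CPM in ESCs, and of 6 markers of Sertoli cells and the somatic gonad the 3 in the table summed to at most 1.87 CPM there. The R1 library on R10 whose title has no n number differed from the numbered R10 ESC libraries. Its sample number lies in the run of the R9 ESC and the NPC libraries, while the numbered ESC and day 18 libraries form a later run. What the runs mark is not given. Of the reads of this R1 library 0.124% were mitochondrial, against 1.56% to 2.35% in the 6 numbered libraries and the 4 of day 18. Low shares were also found in R10 wild-type libraries (0.153% and 0.273% in NPCs, 0.165% and 0.319% at day 2) and in the R9 ESC libraries (0.310% and 0.344%). Its neural progenitor markers summed to 43.7 CPM, against 4.93 to 10.8 in the 6 numbered ones. Without it Trap1a ran from 375 to 496 CPM in ESCs, Morc1 from 289 to 410 CPM and Fmr1nb from 76.0 to 199 CPM.

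In reprogramming cells, 2i-LIF went with higher levels of most of the 10 genes. The media were compared in 5 pairs of libraries that share system, day and flow cell. In them 7 of the 10 genes were called higher in 2i-LIF than in FBS-LIF with doxycycline, and none lower. Over all 14935 genes tested, 12.3% were called, 5.95% higher and 6.32% lower. The 10 genes were chosen as high in ESCs, all of which were in 2i-LIF, and this favours higher values in that medium. The count of 7 is therefore no support for an effect on germ line genes at large. A gene was called when limma, with the pair as a block, gave an adjusted p under 0.05 and an absolute difference of at least 1 in log2(CPM + 1), a scale that understates the change of low genes.

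Dazl moved the most. Its CPM went from 11.6 in FBS-LIF to 89.2 in 2i-LIF for OKMS at day 14, from 28.2 to 354 for OKMS at day 18, from 17.2 to 306 for OKMS at day 20, from 10.2 to 327 for OKS at day 18 and from 2.16 to 268 for OKS at day 20. Every 2i-LIF library was above every FBS-LIF library. The difference was 4.36 ± 0.36 (SE) in log2, with 13.9 ± 9.64 CPM (SD, n = 5) in FBS-LIF and 269 ± 105 CPM in 2i-LIF and an adjusted p of 4.2e-07. Fkbp6 went from 16.9, 66.8 and 59.1 CPM to 46.4, 168 and 172 in OKMS at days 14, 18 and 20, and from 6.40 and 2.16 CPM to 197 and 196 in OKS at days 18 and 20. It was higher in 2i-LIF in 5 of 5 pairs, by 2.99 ± 0.52 (adjusted p 0.00076), and the lowest 2i-LIF library, OKMS at day 14, lay within the FBS-LIF range. Stra8 went from 28.5, 53.4 and 14.8 CPM to 48.9, 84.6 and 54.8 in OKMS, and from 1.28 and 2.16 CPM to 87.6 and 80.3 in OKS. It was higher in 5 of 5 pairs, by 2.64 ± 0.54 (adjusted p 0.0026), with overlap between the media in OKMS.

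Morc1 and Tex19.1 were higher in every pair as well. Morc1 went from 82.3, 46.0 and 156 CPM to 267, 339 and 242 in OKMS, and from 48.7 and 128 CPM to 272 and 357 in OKS. Tex19.1 went from 50.6, 62.3 and 111 CPM to 125, 175 and 185 in OKMS, and from 39.7 and 35.2 CPM to 228 and 140 in OKS. For both genes all 5 libraries in 2i-LIF were above all 5 in FBS-LIF. The difference was 1.82 ± 0.24 for Morc1 (adjusted p 7.0e-05) and 1.59 ± 0.22 for Tex19.1 (adjusted p 0.00011).

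The X-linked genes split. Rhox5 went from 237, 117 and 307 CPM to 434, 245 and 279 in OKMS, and from 15.4 and 37.4 CPM to 183 and 294 in OKS. It was higher in 4 of 5 pairs, by 1.65 ± 0.36 (adjusted p 0.0049), and lower in the OKMS pair of day 20. Fmr1nb was higher in 5 of 5 pairs, by 1.56 ± 0.32 (adjusted p 0.0029), at 52.3 ± 41.7 CPM in FBS-LIF and 124 ± 41.6 CPM in 2i-LIF (SD, n = 5). Trap1a, at 94.8 to 385 CPM in FBS-LIF and 127 to 297 CPM in 2i-LIF, did not pass (0.24 ± 0.17, adjusted p 0.40).

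Ddx4 and Mael did not pass. Ddx4 had 8.44, 49.0 and 19.7 CPM in FBS-LIF and 6.11, 3.53 and 5.37 in 2i-LIF for OKMS, and 7.68 and 11.5 against 23.5 and 8.15 for OKS. The difference was -0.91 ± 0.53 (adjusted p 0.29), and 1 of 5 pairs was higher in 2i-LIF. Mael had 5.12 to 17.9 CPM in FBS-LIF and 6.11 to 9.39 CPM in 2i-LIF (-0.33 ± 0.41, adjusted p 0.66).

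**Figure D2:**
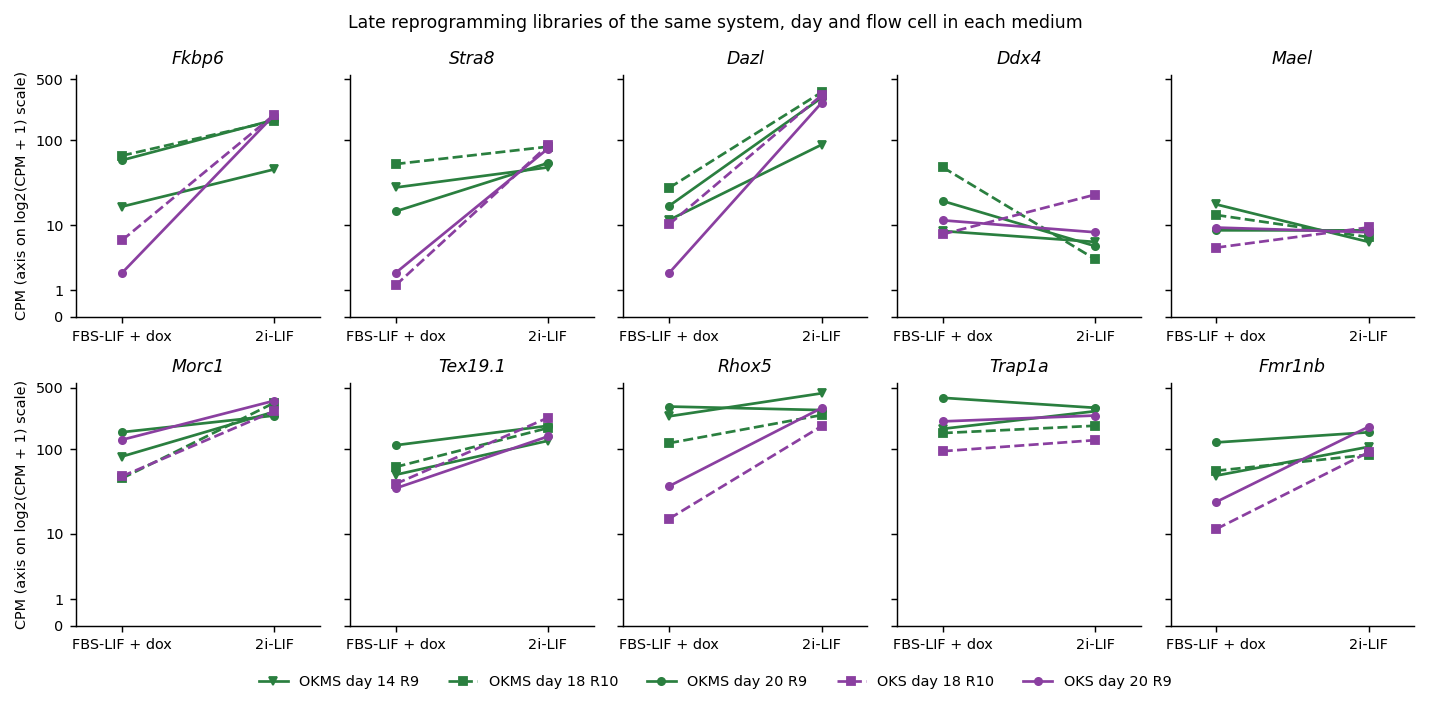
Each panel shows 1 gene, with CPM on an axis spaced as log2(CPM + 1) and a line joining the FBS-LIF with doxycycline library and the 2i-LIF library of the same system, day and flow cell (green OKMS, purple OKS; solid R9, dashed R10; triangles day 14, squares day 18, circles day 20). Dazl rises in all 5 pairs, to 89.2 CPM in the lowest and 354 CPM in the highest, while Ddx4 is higher in 2i-LIF in 1 of 5.

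Other cells differed between these media too. Over 7 mesenchymal markers, all of them above 0, the summed level was 153 to 808 CPM in the 5 FBS-LIF libraries and 15.0 to 32.8 CPM in 2i-LIF, where Col1a2 was at 0. The 13 pluripotency markers summed to 6979 to 16544 CPM in FBS-LIF and 10920 to 16971 CPM in 2i-LIF. Of 9 markers of two-cell-like cells, the 5 in the table summed to 2.56 to 56.6 CPM and 27.9 to 172 CPM. The 2 trophoblast markers in the table, of 6, summed to 6.40 to 31.7 CPM in FBS-LIF and 0 to 5.82 CPM in 2i-LIF. The 3 primitive endoderm markers in the table, of 6, summed to 12.2 to 39.4 CPM and 4.30 to 14.1 CPM. Their part in the result was not tested, and in such bulk libraries fewer cells of a type and less RNA per cell cannot be told apart. Doxycycline, and with it the factors, also differs between the media and cannot be told apart from them. With no filter on low values, Dazl alone of the 7 members was still called (adjusted p 0.045), and the other 6 had an adjusted p of 0.073 to 0.28.

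The gap between media was wider in OKS for Fkbp6. Its OKS levels in FBS-LIF, 6.40 CPM at day 18 and 2.16 CPM at day 20, rest on 5 and 3 reads. The effect of 2i-LIF in OKS minus that in OKMS was 3.94 ± 0.45 in log2 (adjusted p 0.024), the single gene called among 18525 (0.0054%), by a limma interaction fit that was added after these data had been seen. The same difference did not pass for Stra8 (3.91, adjusted p 0.085), Rhox5 (2.62, 0.090), Fmr1nb (2.17, 0.16) or Dazl (2.13, 0.77). With edgeR on recovered reads, and with limma after median centring, it passed for all 5 genes. The call on Fkbp6 was lost with a pseudocount of 0.25 (adjusted p 0.12), after quantile normalization (0.11) and with no filter on low values (0.33). With the OKMS pairs alone, Rhox5 (0.60, adjusted p 0.22), Fmr1nb (0.69, 0.17) and Stra8 (1.08, 0.078) no longer passed, and 4 members were called. Rhox5 also missed without the OKS pair of day 20 (1.32, adjusted p 0.054), with the R9 pairs alone (1.23, 0.078) and with DESeq2 (0.087). With the R10 pairs alone the adjusted p was 0.061 for Fkbp6, 0.14 for Stra8, 0.068 for Rhox5 and 0.15 for Fmr1nb.

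Related gene groups were read in the same 5 pairs from lists drawn up with earlier results of these data known. Where 12.3% of all genes were called and 5.95% were higher, 12 of 17 X-linked germ line genes tested besides the members were called higher in 2i-LIF and none lower, with a median of 1.82 against -0.03 over all genes. Among them Xlr3a, Xlr3b and Xlr3c were higher by 2.20, 2.44 and 4.17 in log2, but these are near-identical copies whose reads may be split, so their values are uncertain. Of 22 meiosis genes, 5 were called higher and none lower, with a median of 0.59. These included Rec114, which acts in meiotic break formation, at 23.0 ± 16.4 CPM in FBS-LIF and 109 ± 40.8 CPM in 2i-LIF, and Hormad1, of the meiotic chromosome axis, at 20.6 ± 11.7 and 70.2 ± 32.3 CPM (SD, n = 5). Of 14 piRNA genes, 2 were higher and 1 lower. The higher ones included Rnf17, a Tudor protein of germ granules (1.11 ± 0.23), and the lower one was Tdrkh (-1.46 ± 0.38). Of 11 genes of germ cell specification and RNA binding, 4 were higher, Prdm14 by 2.93 ± 0.29 and Sohlh2 by 2.43 ± 0.45 among them, and 1 lower, with a median of 0.55. The lower one was Lin28a, an RNA-binding protein that blocks let-7 (-5.15 ± 0.52). Of 15 other germ line genes, 5 were higher and none lower, with a median of 0.81; Rpl10l was at 71.2 ± 31.9 CPM in FBS-LIF and 276 ± 45.4 CPM in 2i-LIF (SD, n = 5).

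A list drawn up for germ line repressors gave calls in both directions between the media. It held 27 genes of PRC1.6, H3K9 methylation and DNA methylation, including Tet1 and Tet2, which act against DNA methylation. Of the 27 genes, 2 were higher, Uhrf1 (1.16 ± 0.18) and Wdr5 (1.13 ± 0.15), and 3 lower, with a median of -0.05. Over all genes 12.3% were called, 5.95% higher and 6.32% lower, with a median of -0.03. These counts are therefore not read as a result on the list. Its 3 lower genes were the de novo DNA methyltransferases Dnmt3a (-1.65 ± 0.26) and Dnmt3b (-2.23 ± 0.31), and their cofactor Dnmt3l (-5.76 ± 0.39). Dnmt3l was at 144 ± 99.4 CPM in FBS-LIF and 1.61 ± 1.8 CPM in 2i-LIF (SD, n = 5).

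Between the factor systems, the genes that could be tested were higher in OKMS. In 9 pairs of OKMS and OKS libraries of the same day and flow cell in FBS-LIF with doxycycline, Rhox5, Trap1a, Tex19.1 and Morc1 passed the filter on low values and all 4 were called higher in OKMS, where 20.1% of 14218 genes were called and 6.91% were called higher. The other 6 genes were too often at 0 to be tested. Tex19.1 and Trap1a passed the filter mainly through OKMS libraries, and Tex19.1 was tested in 7 of the 9 runs that left out a pair. The 4 calls are therefore no support for a wider pattern. Counts of all genes called were 983 higher and 1881 lower in OKMS, but 1514 and 1327 after median centring, which moved the median of all genes from -0.14 to 0.05; the 4 calls on the members held in that setting. With no filter, Rhox5 alone was called (adjusted p 0.021) and Tex19.1 (0.073), Trap1a (0.066) and Morc1 (0.12) were not. With a pseudocount of 0.25 Morc1 was lost (0.063), and a filter of 5 CPM left Morc1 as the one member tested.

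Rhox5 showed the widest gap. On R9, it had 0 CPM in OKS and 160 CPM in OKMS at day 10, 4.14 and 237 at day 14, and 37.4 and 307 at day 20; on R10 at day 18 it had 15.4 and 117. At day 6 it was at 0 in OKS and 17.7 CPM in OKMS on R9, and at 0.43 and 15.0 CPM on R10. It was higher in OKMS in 7 of 9 pairs, by 3.17 ± 0.63 (adjusted p 0.0017). Trap1a had 0 CPM in OKS and 143 in OKMS at day 10, 16.5 and 171 at day 14, 208 and 385 at day 20, and 94.8 and 153 at day 18. It was higher in 8 of 9 pairs, by 2.17 ± 0.60 (adjusted p 0.012).

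Tex19.1 was higher in OKMS in 7 of 9 pairs, by 1.78 ± 0.53 (adjusted p 0.017), with 0 CPM against 35.2 at day 10 and 35.2 against 111 at day 20. Morc1 was higher in 7 of 9 pairs, by 1.63 ± 0.56 (adjusted p 0.032), but lost the call without the R9 pair of day 4, 6, 10 or 14 (adjusted p 0.072 to 0.082). With the 3 R10 pairs alone none of the 4 passed, and limma called no gene at all (2389 had an unadjusted p under 0.05). With days 10 to 20 alone, limma called Rhox5 but not Trap1a (adjusted p 0.11), Tex19.1 (0.061) or Morc1 (0.17). Of the members at 0 too often to be tested over all days, Fkbp6 (3.38, adjusted p 0.019), Stra8 (3.48, 0.017) and Fmr1nb (3.57, 0.021) were called higher in OKMS at those days, where 244 of 14896 genes were called and 32 were higher. Fkbp6 and Stra8 did not exceed 6.40 and 2.16 CPM in OKS there, and Fmr1nb ran from 0 to 24.4 CPM. Each could enter the test through the OKMS libraries alone, so these calls are no support for a wider pattern. With days 2 to 6 alone no member was called, Morc1 being the one tested (adjusted p 0.14), while limma called 3877 genes. The pluripotency markers differed likewise: at days 10 to 20 they summed to 134 to 9993 CPM in OKS and 6332 to 16544 CPM in OKMS. The 7 mesenchymal markers summed to 663 to 3511 CPM in OKS and 153 to 790 CPM in OKMS, and the 2 of 6 trophoblast markers in the table to 0 to 12.2 and 14.1 to 49.2 CPM. Their part in the result was not tested.

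Before day 10, reads in the OKMS and OKS libraries in FBS-LIF with doxycycline came from Rhox5, Trap1a, Morc1 and Tex19.1 and, in 1 library, from Mael. In these 11 libraries of days 2 to 6, Fkbp6, Stra8, Dazl, Ddx4 and Fmr1nb had no read, and Mael had 0.88 CPM in 1 library. The 3 wild-type libraries of day 2 held Fkbp6 at up to 1.41 CPM and Stra8, Dazl and Fmr1nb at up to 0.39 CPM. Morc1 had 10.4 CPM at day 4 and 21.8 CPM at day 6 of OKMS on R9, against 3.19 and 1.77 CPM on R10. At day 10 of OKMS, on R9 and R10, Rhox5 had 160 and 154 CPM, Trap1a 143 and 55.2, Morc1 40.8 and 24.6, and Tex19.1 35.2 and 32.3. In the same libraries Fmr1nb had 16.9 and 4.24 CPM and Dazl 2.81 and 3.39. In OKS at day 10, read on R9 only, Mael at 2.23 CPM was the one member above 0.

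**Figure D3:**
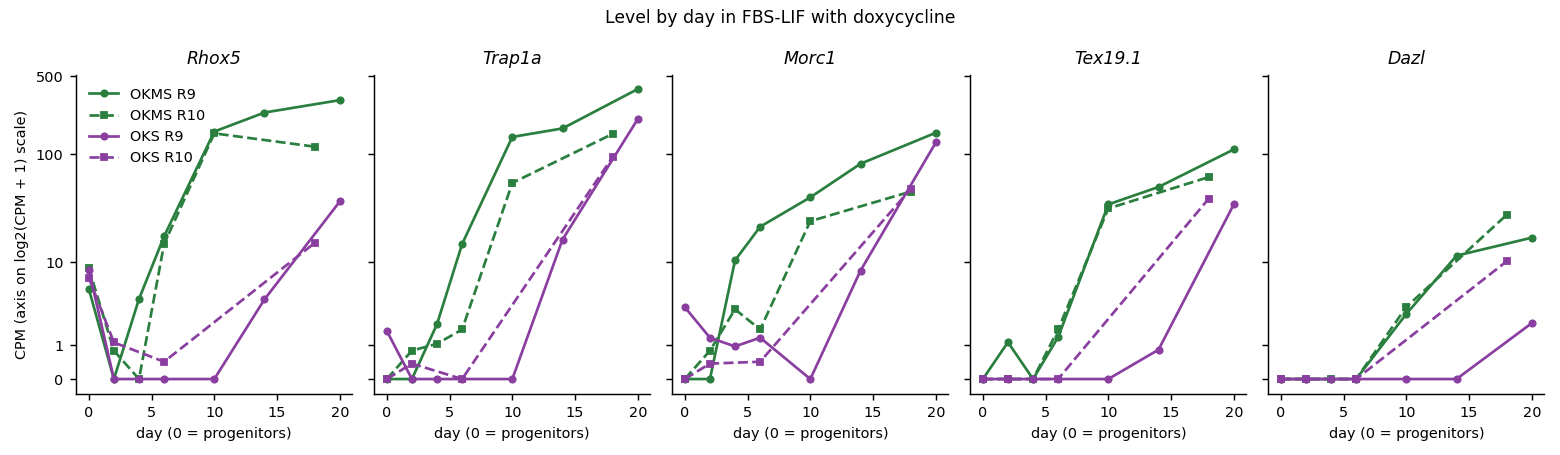
The 5 panels show Rhox5, Trap1a, Morc1, Tex19.1 and Dazl, with day in FBS-LIF with doxycycline on the x axis (day 0 is the NPC library of the same line) and CPM spaced as log2(CPM + 1); green is OKMS, purple OKS, solid lines with circles R9 and dashed lines with squares R10, 1 library per point. Rhox5 falls to 0 at day 2 on R9 in both systems and stands at 160 CPM in OKMS but 0 CPM in OKS at day 10.

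Late days were compared with early days on R9, over the 6 libraries of days 10, 14 and 20 and the 6 of days 2, 4 and 6, with the system as a term. Of the 4 members tested, 3 were called higher late, where 1.63% of 14277 genes were called and 0.967% were called higher. The filter could be passed through the late libraries alone, so these 3 calls say little of other members, 6 of which were not tested. Trap1a was at 2.85 ± 6.02 CPM early and 154 ± 141 CPM late (SD, n = 6), a difference of 4.90 ± 1.01 (adjusted p 0.044). Rhox5 differed by 4.09 ± 0.88 (adjusted p 0.044) and Tex19.1 by 3.56 ± 0.82 (adjusted p 0.048), while Morc1 did not pass (2.97 ± 0.99, adjusted p 0.11). None of the 3 calls held when day 2, 4, 6, 14 or 20 was left out, with a pseudocount of 0.25 or with no filter on low values. With R9 and R10 libraries together all 4 members were called. With OKMS alone 6 members were called, Fmr1nb (5.58, adjusted p 0.015), Stra8 (3.96, 0.026) and Mael (3.30, 0.041) besides the 3, where 218 of 15185 genes were called and 184 were higher. Those added members had no read in any early R9 library and entered the test through the late libraries alone, so they could only be higher. With OKS alone limma called no gene (1531 had an unadjusted p under 0.05), and Morc1 was the one member tested (adjusted p 0.55). On R9 the pluripotency markers summed to 101 to 1597 CPM in the early and 134 to 11322 CPM in the late libraries, and the neural progenitor markers to 351 to 5055 and 16 to 453 CPM. Their part in the result was not tested. Whether the rise differed between OKMS and OKS was tested by a limma interaction, which called none of 17284 genes (0%). An unadjusted p under 0.05 was reached by 798 genes in limma and by 630 in edgeR, which called none either.

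Rhox5, the member already on in NPCs, went down before it came up. In wild-type progenitors on R10 it was at 6.99 and 5.74 CPM in NPC medium and at 0 and 0.66 CPM at day 2 of FBS-LIF with the drug, and the groups did not overlap. The difference was -2.51 ± 0.43 (adjusted p 0.012), in a comparison where 26.8% of 14688 genes were called and 11.9% called lower, and where Rhox5 was the only member tested. With 2 libraries a group, the call was lost whichever library was left out (adjusted p 0.060 to 0.20) and with no filter on low values (0.084). In the same libraries the mesenchymal markers summed to 15.9 and 16.6 CPM in NPC medium and 87.7 and 245 CPM at day 2, with Col1a2 at 0 throughout. The 3 of 6 primitive endoderm markers in the table summed to 4.13 and 5.74 and to 161 and 72.8 CPM, with Gata6 at 0 throughout. The 3 of 6 Sertoli and somatic gonad markers in the table summed to 3.18 and 4.02 and to 45.4 and 13.5 CPM, with Gata1 at 0 throughout. Their part in the result was not tested. At day 2 the OKMS and OKS libraries had 0 CPM on R9, and 0.79 and 1.12 CPM on R10.

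Reprogrammed cells in 2i-LIF did not match ESCs in the same medium for all the genes. Against the 9 ESC libraries, with flow cell as a term, 2 members were called higher and 1 lower in the 5 reprogrammed libraries, where 3.36% of 14946 genes were called, 1.87% higher and 1.49% lower. Mael had 6.11, 7.05, 8.15, 8.60 and 9.39 CPM in reprogrammed cells and 0.87 to 4.00 CPM in ESCs, with no overlap. It differed by 1.76 ± 0.31 (adjusted p 0.0021, limma). In the 5 reprogrammed libraries 1 read was worth 1.07 to 1.76 CPM, so each of these Mael values rests on few reads. Dazl had 89.2 CPM in OKMS at day 14 and 268 to 354 CPM in the other 4 reprogrammed libraries, against 82.4 to 138 CPM in ESCs. The 4 were above every ESC library and that of day 14 was among them, and the difference was 1.22 ± 0.26 (adjusted p 0.010). Trap1a had 127 to 297 CPM in reprogrammed cells and, apart from the library without an n number at 230 CPM, 375 to 496 CPM in ESCs. The difference was -1.08 ± 0.17 (adjusted p 0.00062), but the genes were chosen for high ESC levels in these libraries, which favours a lower value elsewhere.

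Rhox5 was higher in reprogrammed cells by less than the size required for a call (0.86 ± 0.18, adjusted p 0.0093). Stra8 had 48.9 to 87.6 CPM in reprogrammed cells, and missed the threshold with all ESC libraries (2.33 ± 0.69, adjusted p 0.058). Without the unnumbered R1 library, at 90.7 CPM, the difference was 2.63 (adjusted p 0.0040, limma). From R9 libraries alone the Stra8 difference was 0.77, where the 2 ESC libraries had a mean of 35.6 CPM. With R9 libraries alone no member was called (Mael adjusted p 0.18, Dazl 0.63), and 110 genes passed in all. Against O4G ESCs alone, the line the reprogrammed cells came from, Trap1a and Stra8 were called, and not Mael (adjusted p 0.18) or Dazl (0.14). Dazl also missed without the OKMS (adjusted p 0.059) or the OKS (0.077) library of day 18 and with no filter on low values (0.081), and Trap1a fell below the size for a call without the latter (-0.89). The markers of two-cell-like cells summed to 27.9 to 172 CPM in reprogrammed cells and 0 to 8.06 CPM in ESCs, and the 7 mesenchymal markers to 15.0 to 32.8 and 4.24 to 14.1 CPM, with Col1a2 at 0 in the former and Postn in the latter; their part in the result was not tested.

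Among the ESC lines, Stra8 was the only member that passed both the adjusted p and the size for a call. In the 6 numbered R10 libraries it had 1.34 and 3.30 CPM in O4G, 7.55 and 12.2 CPM in R1, and 2.32 and 3.10 CPM in R1-Clone3, and both R1 libraries were above the other 4. The means ranged over 1.74 in log2 (adjusted p 0.017 by limma's moderated F test), and Stra8 was the only one of 10 members called, where 3.78% of 14750 genes were called. The call was lost without R1 library 1 (adjusted p 0.20) or 2 (0.054), without R1-Clone3 library 1 (0.066), with no filter on low values (0.28), and with the unnumbered R1 library added (0.27). The R9 libraries, 1 per line, had 27.5 CPM in O4G and 43.7 CPM in R1, both above all 6 numbered R10 libraries. Rhox5 (range 0.86, adjusted p 0.0049) and Morc1 (0.42, 0.015) differed by less than the size for a call, though with a lower adjusted p than Stra8 in the same F test. The range of Rhox5 was 0.69 to 1.03 when a library was left out. Rhox5 had 143 and 181 CPM in R1, 112 and 136 in O4G, and 95.7 and 80.9 in R1-Clone3.

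**Figure D4:**
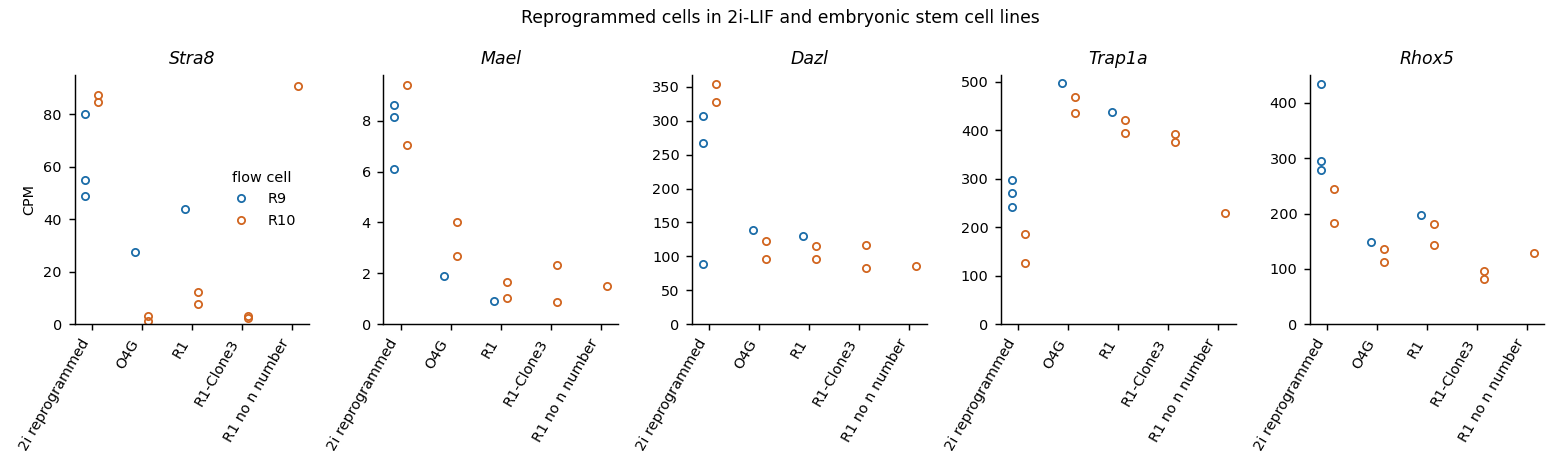
The 5 panels show Stra8, Mael, Dazl, Trap1a and Rhox5 in CPM on linear axes that start at 0, with 1 point per library for the 5 reprogrammed libraries in 2i-LIF, each ESC line and the R1 library without an n number; blue is R9 and orange R10. That library has 90.7 CPM of Stra8 and 230 CPM of Trap1a, and all 5 reprogrammed libraries are above all ESC libraries for Mael.

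The wider germ line programme was read between ESCs and NPCs from the same lists. In R10, 45.8% of 15415 genes were called and 22.4% were called higher in ESCs. The numbered R10 ESC libraries have later sample numbers than the R10 NPC libraries, and what this marks is not given. Of 13 piRNA genes tested, 9 were higher and 2 lower, and 4 had no read in 1 of the arms. Rnf17 was at 0 in the NPCs and at 68.4 ± 25 CPM in ESCs (SD, n = 7), and Tdrd12, a Tudor-domain helicase, at 0.15 ± 0.29 and 58.1 ± 6.0 CPM. Tdrkh, which anchors piRNA factors to mitochondria, went the other way, at 62.8 ± 20 and 1.20 ± 1.0 CPM. Of 22 meiosis genes, 14 were higher and none lower, and 10 of the 22 had no read in 1 of the arms and so entered the test through the other alone. Hormad1 was at 0 in NPCs and 66.5 ± 13 CPM in ESCs. Of 12 genes of germ cell specification and RNA binding, 9 were higher and 1 lower, with 3 at 0 in an arm; Prdm14, a factor of germ cell specification and naive pluripotency, was at 0 and 49.9 ± 6.0 CPM.

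All 14 X-linked germ line genes tested were higher, but 12 of them had no read in any R10 NPC library and so passed the filter through the ESCs alone. Of 13 other germ line genes, 11 were higher and 2 lower, and 7 entered the test through 1 arm alone; Rpl10l, a ribosomal protein copy used in the testis, was at 0 and 239 ± 17 CPM. The lower ones were Zcwpw1 (-1.55 ± 0.25) and Brdt (-1.31 ± 0.28). The list medians were 1.94 for piRNA genes, 1.18 for meiosis, 2.62 for specification, 4.23 for X-linked and 2.65 for other germ line genes, against 0.0059 over all genes. Genes with no read in 1 arm passed the filter through the other arm alone, so these medians are descriptions and no test of the lists. With genes at 0 in an arm set at their bound they were 2.77, 2.16, 2.62, 5.98 and 3.16. Of the 27 genes on the repressor list, Tet1 and Tet2 among them, 11 were higher and 4 lower in ESCs. Dnmt3b was higher by 3.52 ± 0.21, and Yaf2 (-2.99 ± 0.21), E2f6 (-1.45 ± 0.24) and Dnmt3a (-1.50 ± 0.18) were lower. In R9, 36% of 15746 genes were called, and of 12 piRNA genes 7 were higher and 3 lower, and of 19 meiosis genes 13 were higher and none lower; 5 and 7 of them had no read in 1 of the arms. Ring1 was lower in R10 (-2.30 ± 0.30) but at 0.38 in R9 (adjusted p 0.52). Of the repressor list 11 were higher and 1, Yaf2, lower in R9, where Dnmt3a (-1.11, adjusted p 0.076) and E2f6 (-0.48, 0.33) did not pass. Dnmt3b passed there (2.49, adjusted p 0.041) but not without either R9 ESC library or with a pseudocount of 0.25.

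The transcript table showed which RNAs carried these gene levels. Shares are of the TPM of the listed transcripts, which may lack reads counted for the gene. Of the 118 transcripts, 25 were full matches to the splicing of an annotated transcript, 15 were partial matches, 11 joined annotated splice sites anew and 66 had a splice site outside the annotation. Morc1 had the most, 28. For Morc1, 17 transcripts started at chr16:48611033-48612093, inside intron 20 of the 27-exon reference, before its last 7 exons. Their open reading frames reached at most 192 residues, against 950 for the gene. In the 7 R10 ESC libraries they carried 91.6% to 94.0% of the gene's TPM (154 to 315 TPM), while transcripts from the annotated start had 2.69 to 12.5 TPM. In the 5 reprogrammed libraries in 2i-LIF the inner-start transcripts had 140 to 223 TPM. TPM gives short transcripts more weight: weighted by length, the inner-start share in R10 ESCs was 81.5% to 85.4%. A cDNA that stops short of the 5′ end would also be listed as starting inside a gene, and 12 of the 17 starts lay within 100 bases of their median. An antisense gene of Morc1 in the table had 12.1 to 31.1 CPM in ESCs.

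Rhox5 started far from its GENCODE position. Of its 20 transcripts, 18 started at chrX:37754570-37754626, up to 50272 bases upstream of the GENCODE start and around the RefSeq start whose window is printed above. Rhox5 is known to have a distal and a proximal promoter, the latter used in the testis. These 18 transcripts carried 97.1% to 100% of the gene's TPM in the 9 ESC libraries, 97.6% to 100% in the 5 reprogrammed libraries in 2i-LIF and 100% in all 8 NPC libraries. The change in level between these groups was not accompanied by a change of start.

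For Trap1a the start did differ between the FBS-LIF and the 2i-LIF libraries. Its 4 upstream transcripts started at chrX:139317712-139317729, up to 15971 bases before the GENCODE start. They were read in 8 of 9 FBS-LIF libraries of days 10 to 20, all 8 in which the gene was above 0. They made up 32.9% of the gene's TPM in OKMS at day 10 on R9 and 17.7% on R10, 21.3% in OKMS at day 14, 2.35% in OKMS at day 18, 6.13% in OKMS at day 20, 38.2% in OKS at day 14, 14.0% in OKS at day 18 and 20.9% in OKS at day 20. They were at 0 in all 5 reprogrammed libraries in 2i-LIF and in 7 of 9 ESC libraries, and at most 0.127% in the other 2. At day 6 of OKMS on R9 they made up 48.5% (12.2 TPM). So the FBS-LIF libraries of days 10 to 20 with the gene above 0 did not overlap the 2i-LIF libraries in this share. The Trap1a gene level did not pass the test between the media. This pattern was noticed in the data and has no test. Within FBS-LIF the share also fell with day in OKMS, from 32.9% at day 10 to 6.13% at day 20 on R9. Doxycycline also differed between the media and cannot be told apart from them.

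Dazl, Fkbp6 and Fmr1nb each came in more than a single form. Dazl transcripts of 10 exons, which skip exon 8 of the 11 in the reference and encode 281 in place of 298 residues, made up 59.3% to 71.7% of the gene's TPM in the R10 ESC libraries and 23.7% to 28.8% in the R9 ESC libraries. These ranges did not overlap, and the flow cells differ in kit, RNA selection and amplification, which cannot be told apart here. Weighted by length the shares were 63.5% to 76.9% and 21.1% to 30.8%. A transcript that overlapped only exons 10 and 11 was also listed, so the rest of the TPM is not all the 11-exon form. The share is therefore no measure of exon 8 skipping alone. In reprogrammed cells in 2i-LIF the 10-exon share ran from 22.4% to 71.9%. Fkbp6 ended in a distal last exon in 37.4% to 71.0% of its TPM in ESCs, with the main forms of both ends encoding 327 residues. Fmr1nb was split in ESCs between a 5-exon form of 138 residues, at 38.9% to 61.1% of TPM, and a 4-exon form of 112 residues that skips exon 2, at 33.6% to 48.6%.

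The remaining members differed in how full their transcripts were. Mael had a single transcript of 12 exons and 434 residues, the full-length form. Ddx4 had 3, a 391-base transcript of 6 exons and 2 of 22 exons that encode 728 and 733 residues. In Stra8, transcripts that started further inside the gene made up 29.8% and 77.6% of TPM in the R9 ESC libraries, at most 29.4% in the R10 ESC libraries and at most 4.89% in reprogrammed cells in 2i-LIF. A Tex19.1 transcript of 418 bases was at 0 in the R9 ESC libraries and 13.4% to 39.6% of TPM in the R10 ESC libraries.

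**Figure D5:**
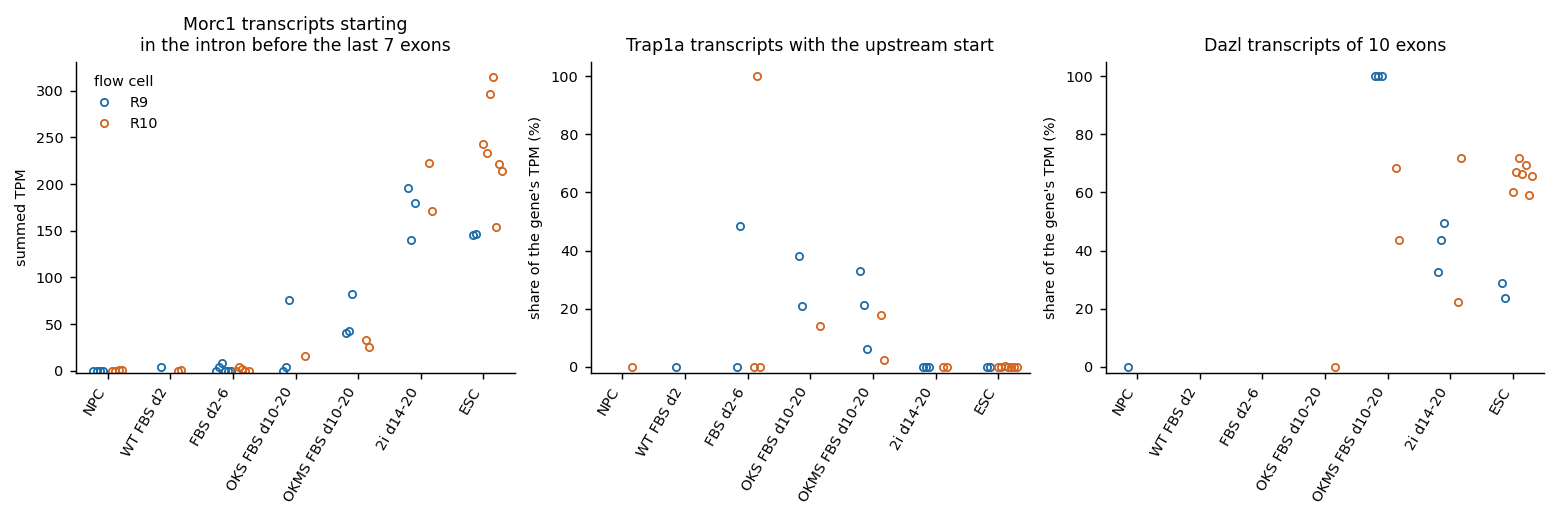
Points are libraries by group (blue R9, orange R10). The left panel gives the summed TPM of Morc1 transcripts that start in the intron before the last 7 exons, the middle panel the share of Trap1a TPM from the upstream start, and the right panel the share of Dazl TPM from 10-exon transcripts; libraries without any TPM for the gene are left out of the shares. The Trap1a share is 2.35% to 38.2% at days 10 to 20 in FBS-LIF and 0 in 2i-LIF.

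Likeness of pattern was measured as Pearson's r of log2(CPM + 1) over all 45 libraries, which share cell type, flow cell and depth, and is a description. Among 14827 genes, the closest to Fkbp6 was Dazl (r = 0.98), followed by Hormad1 and Rhox1. Morc1 and Trap1a were close to each other (0.98) and to Zfp42, the pluripotency gene Rex1. Tex19.1 was closest to Lncenc1 (0.99), Triml1 and Platr3, and Fmr1nb to Gm48168 (0.99), Abcb1a and Rnf17. Rhox5 was closest to Hat1 (0.94), Pramef12 and Upp1, and Stra8 to Cd37 (0.93). Ddx4 was closest to an antisense gene of Ugt3a2 (0.92) and Mael to 4930447C04Rik (0.89). Between members r ran from 0.70, for Fkbp6 with Mael, to 0.98.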

How the data were processed

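RNA of 45 mouse cell libraries was read on Oxford Nanopore flow cells, 22 as direct cDNA on R9 from poly(A)-selected RNA and 23 as PCR cDNA on R10 from total RNA, per the labels' protocols. The authors deposited gene values in CPM and transcript values in TPM, with a table of transcript structures; per the submitters' processing notes, reads were mapped with minimap2 2.24-r1122 to mm10, and the deposited tables carry the name of IsoQuant, a tool that assigns long reads to transcripts; its settings, including the use of strand, are not given in the sources used here. Per the file headers, 13 further columns matched no sample and were not used. In the deposited CPM, 100% of values came out as whole reads (within 0.1 read), and those reads were recovered. Deposited TPM was taken as corrected for transcript length.

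The members and gene lists were chosen with earlier results of these data known. limma 3.58.1 (R 4.3.3) was fitted to log2(CPM + 1) over all genes with at least 1 CPM in as many libraries as the smaller arm, with Benjamini-Hochberg adjustment over all genes tested; a call needed an adjusted p under 0.05 and an absolute log2 difference of at least 1. The medium and system comparisons had the matched pair as a block. Alternatives were a pseudocount of 0.25, filters of none and 5 CPM, quantile normalization, median centring, edgeR 4.0.16 and DESeq2 1.42.0 on recovered reads, subsets by flow cell, and leaving out libraries; those on OKMS or OKS pairs alone, the interactions, and R10 without the unnumbered R1 library were chosen after seeing the data. Genes named from a list were at most 3 called in each direction with the largest R10 difference between ESCs and NPCs; E2f6, Uhrf1, Wdr5, Lin28a and the transcript shares fall outside that rule and were chosen after their values were seen. The 3 genes closest in pattern to each member were taken by Pearson's r, and Tex19.2 is named as a paralog. The fits were run on simulated counts with a fixed spread and no pair, day, system or flow cell effects. Changes were set only in genes with a mean of at least 5 CPM, so the simulation does not test calls on genes near 0.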

Additional observations from a re-analysis of the deposited data

Results flagged for a closer look

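In the R1 ESC library on R10 whose title has no n number, Stra8 was at 90.7 CPM (243 reads), far above the next of the 7 R10 ESC libraries at 12.2 CPM; the gap was 0.879 of the whole range. The same library had the lowest Trap1a level, 230 CPM against 375 CPM in the nearest, a gap of 0.611 of the range. Of 12 combinations of a gene and a library group examined in this way these 2 stood out, both through the same library. Chance alone marks about 1 in 20 of independent sets. The combinations share libraries, so the 2 cannot be set against that rate. The mitochondrial share of 0.124% and the neural progenitor marker sum of 43.7 CPM of that library also lay apart from the 6 numbered ESC libraries, and their part in these values was not tested. The 2 R9 ESC libraries, whose sample numbers lie in the same run as its own, had a mean of 35.6 CPM of Stra8. Their mitochondrial shares were 0.310% and 0.344%.

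The effect of 2i-LIF on Fkbp6 was 3.94 ± 0.45 (SE) larger in OKS than in OKMS on the log2 scale. The adjusted p was 0.024 (limma interaction over 18525 genes). Fkbp6 was higher in 2i-LIF in 3 of 3 OKMS pairs and 2 of 2 OKS pairs. The interaction fit was added after the data had been seen. Its call was lost with a smaller pseudocount, after quantile normalization and with no filter on low values. The OKS levels in FBS-LIF, 6.40 CPM at day 18 and 2.16 CPM at day 20, rest on 5 and 3 reads. In 2i-LIF at those days Fkbp6 had 197 and 196 CPM in OKS, against 168 and 172 CPM in OKMS.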

How the results depend on the processing

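Of 1363 settings none reversed the sign of a called value, but many could not. Counts of genes called and ranges over the ESC lines carry no sign. The other named genes were chosen by large differences between ESCs and NPCs, which left them little room to reverse. Of 747 settings of single members, 651 stayed on their side of the threshold, 76 lost it and 20 gained it. Counts of genes called moved more. For the medium (1832 genes), they were 364 without a filter, 1166 with R9 pairs, 188 with R10 pairs and 801 with OKMS pairs, and 1210 to 1908 leaving out a pair. For the system (2864) they were 0 with R10 pairs (2389 at an unadjusted p under 0.05) and 244 at days 10 to 20. For late against early (233) they were 11 with a pseudocount of 0.25, 0 without a filter (4092 unadjusted), 1 at 5 CPM, 934 with DESeq2, 0 in OKS alone (1531 unadjusted), 2282 with R10 added and 0 to 2325 leaving out a day. For the ESC lines (557) they were 2 without a filter, 301 with DESeq2, 4 with the unnumbered R1 library and 305 to 408 leaving out a library. For reprogrammed cells against ESCs (502) they were 270 without a filter, 246 at 5 CPM, 223 with edgeR (170 higher and 53 lower, against 280 and 222), 300 with DESeq2, 110 in R9, 1438 in R10, 115 against O4G, 1896 in R10 without the unnumbered library and 267 to 583 leaving out a library. For wild-type progenitors (3940) they were 1395 without a filter and 0 to 1141 leaving out a library. The medium by system interaction (1 gene) gave 0 with a pseudocount of 0.25 (978 unadjusted) or quantile normalization (940), 10 without a filter, 6 at 5 CPM, 41 after median centring and 60 with edgeR; that of time by system (0) gave 43 without a filter. The cause was not tested, beyond the fewer libraries or genes that a subset holds.

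With the replicate number as a block, 5605 genes were called in wild-type progenitors and 874 among the ESC lines. Same-numbered wild-type libraries deviated together (r = 0.47), and their mitochondrial shares ran with the number (0.319% and 0.273% for number 2, 0.165% and 0.153% for number 3). With 2 pairs, and labels that do not say what a number marks, a shared origin was not established; Rhox5 kept its call under the block (adjusted p 0.00017). Same-numbered ESC libraries correlated at 0.073 to 0.16.

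Depth limits Mael and Ddx4 most, since 1 read was worth 0.236 to 2.23 CPM and Mael rests on 45 reads in R10 ESCs and 3 in R9 ESCs.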
